A study of Mus musculus with 6 samples.

Results

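The genes described here are 6 matrix metalloproteinase genes (Mmp8, Mmp9, Mmp12, Mmp13, Mmp14 and Mmp19) and the 3 genes of their tissue inhibitors (Timp1, Timp2 and Timp3), 9 of the 17382 genes in the authors' table, chosen by gene symbol. RNA came from myeloid cells grown from the bone marrow of C57BL/6 mice aged 2 months, cultured with M-CSF, which drives growth of monocytes and macrophages, at 40 ng/mL for 3 days. The 3 libraries labelled knockout came from mice given as PD-L1 flox/flox +lysozyme-Cre, a transgene that drives recombination in myeloid cells; which exons were floxed is not stated. The 3 libraries labelled wild type came from littermates given as PD-L1 flox/flox alone, so that by the labels all 6 cultures carry the floxed alleles. The design text calls the libraries biological triplicates, and p-values here reflect only the variation among them, which may be technical.

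Matrix metalloproteinases are zinc-dependent enzymes that cut collagens, elastin, gelatin and many cell-surface and soluble proteins. They are made as inactive proenzymes, and most are secreted, while MMP14 is held in the plasma membrane. TIMPs bind the active site and block it; TIMP2 also takes part, with MMP14, in the activation of pro-MMP2. In marrow-derived cells MMP8 and MMP9 are known as enzymes of neutrophil granules, MMP12 as the elastase of macrophages, and MMP9 and MMP14 also as enzymes of osteoclasts.

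Some facts of the whole table bear on what follows. Values are TPM, reads per gene length scaled to a common total, and 52.4 to 77.3 (in units of 1000000 reads) stood behind each library. Cd274, which encodes PD-L1, had 19.3, 19.2 and 29.2 TPM in the cultures labelled knockout, against 17.9, 15.5 and 23.7 TPM in wild-type cultures. It was not lower, so the deposited values do not show the deletion, and each direction below goes by label. The first principal component, computed over 13713 genes without the 9 described here, held 44.3% of the variance and did not follow genotype. The libraries labelled knockout 1, knockout 2 and wild type 3 scored -23, -17.4 and -30.1 on it, and those labelled knockout 3, wild type 1 and wild type 2 scored 31.7, 19.8 and 19.1. All 9 macrophage markers checked were present. They summed to 17770 to 25030 TPM in the cultures labelled knockout, against 32140 to 46290 TPM in wild-type cultures, without overlap, and most of the sum was lysozyme, Lyz2, in whose locus such Cre transgenes commonly sit. The receptor gene of M-CSF, Csf1r, named after its values were seen, overlapped instead, at 815 to 1448 TPM labelled knockout, against 1042 to 1525 TPM in wild-type cultures; the part of these markers in the results below was not tested. In bulk RNA, fewer cells of a type and less RNA per cell cannot be told apart.

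Promoters are shown for the 7 of the 9 genes that have RefSeq sequence here (GRCm38.p6, the same assembly as mm10), all but Mmp9 and Mmp19, so that genes with and without a motif near the start can be set side by side. Each line gives the 150 bases before the annotated start, with capitals marking whole matches within it, on either strand, to TGANTCA (the AP-1 motif, bound by Fos and Jun dimers) or TATAAA (the TATA box). Mmp12 also has an upstream RefSeq start that is not shown and holds neither match.
Mmp13 (chr9:7272364-7272513, plus strand): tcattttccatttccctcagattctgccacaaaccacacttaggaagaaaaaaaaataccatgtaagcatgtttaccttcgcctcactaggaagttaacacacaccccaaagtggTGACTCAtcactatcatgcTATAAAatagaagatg
Mmp12 (chr9:7347224-7347373, plus strand): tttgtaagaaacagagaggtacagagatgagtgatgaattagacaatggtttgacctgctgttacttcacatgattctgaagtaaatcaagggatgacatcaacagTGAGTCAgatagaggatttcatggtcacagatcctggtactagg
Mmp8 (chr9:7558279-7558428, plus strand): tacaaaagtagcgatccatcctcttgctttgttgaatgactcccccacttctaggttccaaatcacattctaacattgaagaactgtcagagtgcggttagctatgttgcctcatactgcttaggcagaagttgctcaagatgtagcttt
Mmp14 (chr14:54431448-54431597, plus strand): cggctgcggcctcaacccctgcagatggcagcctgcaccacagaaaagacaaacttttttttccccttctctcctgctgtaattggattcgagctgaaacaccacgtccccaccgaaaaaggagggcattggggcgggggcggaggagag
Timp1 (chrX:20870016-20870165, plus strand): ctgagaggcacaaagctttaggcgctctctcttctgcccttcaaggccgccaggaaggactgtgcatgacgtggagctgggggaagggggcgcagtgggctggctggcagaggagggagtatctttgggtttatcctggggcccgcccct
Timp2 (chr11:118355412-118355561, minus strand): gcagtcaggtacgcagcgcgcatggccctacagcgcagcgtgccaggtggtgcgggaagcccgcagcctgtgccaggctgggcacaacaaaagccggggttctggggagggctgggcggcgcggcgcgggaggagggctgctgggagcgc
Timp3 (chr10:86300262-86300411, plus strand): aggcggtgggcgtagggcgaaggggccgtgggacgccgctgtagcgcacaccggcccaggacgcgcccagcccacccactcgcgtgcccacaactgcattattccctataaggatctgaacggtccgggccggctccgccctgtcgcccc

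The AP-1 match begins 35 bases before the start of Mmp13 and 44 bases before that of Mmp12. In windows of 300 bases, from 250 before to 50 after the start, it was present for 2 of the 7 genes and in 7.81% of 32851 mouse promoter windows. Mmp13 and Mmp12 had their highest level in the library labelled knockout 3. Timp1 did too, but only at 1.67 TPM (36 reads), against 1.63 TPM (45 reads) in wild type 2. The window of Timp1 holds none of the motifs searched. The part of the motifs in these levels was not tested. TATAAA was found in the windows of Mmp13, Mmp12 and Mmp8 and in 13.6% of all windows. Only that of Mmp13 lies before the start on the same strand, beginning 16 bases before it. That of Mmp12 begins after the start. That of Mmp8 is on the opposite strand and runs across the start, so neither is marked in the lines above. GAGGAAG, the core of the motif of the myeloid factor PU.1, was found in the windows of Mmp8 and of the upstream start of Mmp12 and in 13.6% of all windows. A match is a run of letters and not a measured binding site, and no match says only that these letters are not in the window.

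Timp2 was the most abundant of the 9 transcripts and Timp1 the least. Over the 6 libraries the mean level was 138 ± 30 TPM for Timp2, 114 ± 28 for Mmp8, 95.4 ± 29.1 for Mmp12, 36.1 ± 5.1 for Mmp19, 34.2 ± 5.3 for Mmp9, 13.5 ± 6.6 for Mmp14, 7.25 ± 3.59 for Mmp13, 7.22 ± 1.42 for Timp3 and 1.28 ± 0.33 TPM for Timp1 (SD, n = 6). The ranges of neighbours in this order overlapped except between Mmp12 and Mmp19, between Mmp9 and Mmp14, and between Timp3 and Timp1. Timp2 nevertheless exceeded Mmp8 in 6 of 6 libraries, while Mmp8 exceeded Mmp12 in 4 of 6 and Mmp13 exceeded Timp3 in 2 of 6. Timp2 made up 93.3% to 95.9% of the summed TIMP level in the cultures labelled knockout, against 92.4% to 94.3% in wild-type cultures.

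By genotype, none of the 9 genes passed the test, and for none were the libraries labelled knockout all above or all below those of wild type. In the fit over 13722 genes (limma on log2(TPM + 0.1), Benjamini-Hochberg adjusted p under 0.05), 0 of 9 passed, against 0% of all genes, and each of the 9 had an adjusted p of 1.0. At an unadjusted p under 0.05 there were 0 of 9, against 2.18% of all genes, and limma-voom on recovered reads gave 0 calls and 1 gene at that level, Timp3. The groups did not overlap for 0 of 9, against 5.12% of all genes. The log2 difference was positive for 6 genes and negative for 3, with a median of 0.03, where the median over all genes was 0.00. The authors' deposited table calls 0 of the 9, against 0.265% of its genes.

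**Figure D1:**
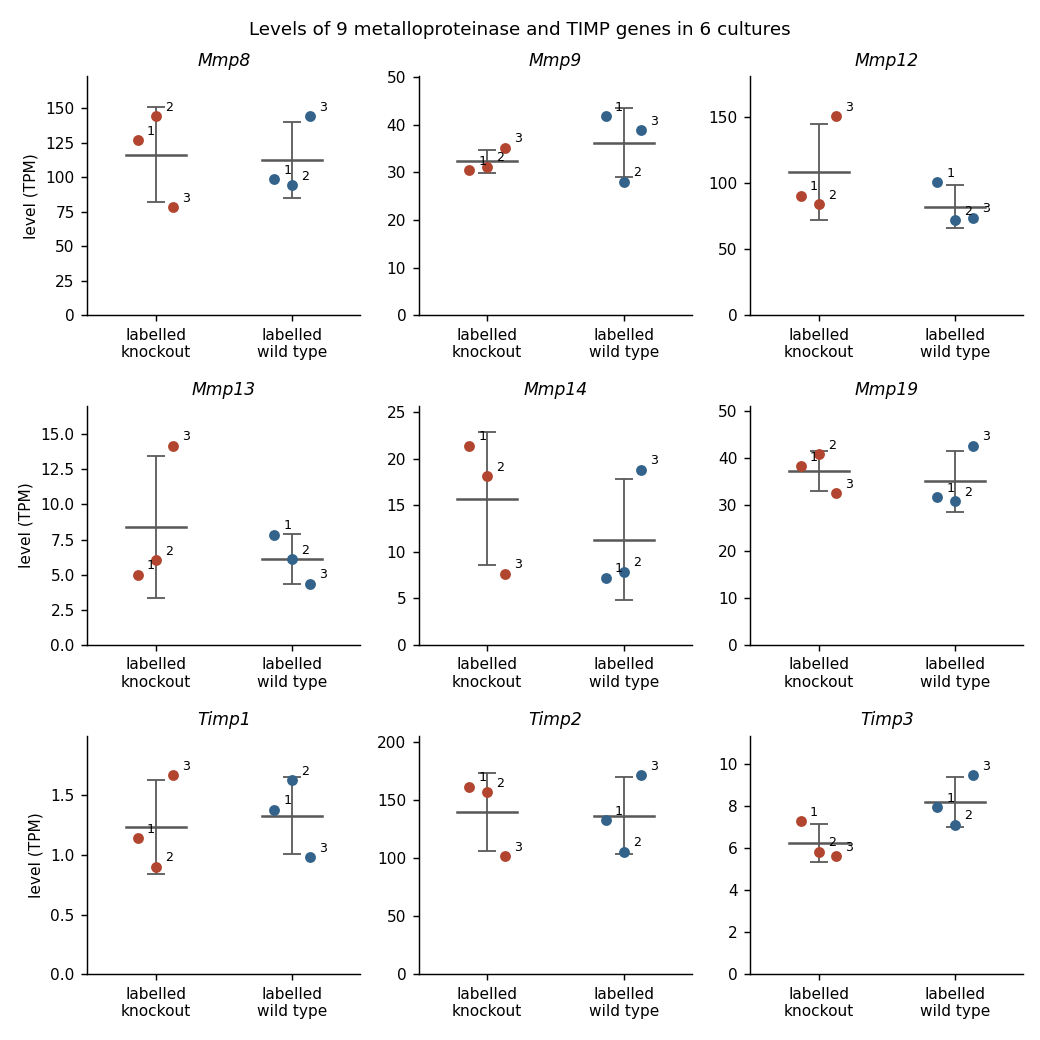
Level in TPM (vertical axis, starting at 0) of each of the 9 genes in the 3 libraries labelled knockout and the 3 labelled wild type; points are libraries with their replicate number, lines the mean and bars the SD. Both groups hold high and low libraries for most genes, and the library numbered 3 is at one end of its group for Mmp14 in both genotypes (7.65 TPM labelled knockout, 18.8 TPM wild type).

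Mmp8 and Mmp13 encode collagenases, which are among the enzymes that can cut intact fibrillar collagen. Mmp8, on chromosome 9 from 7558429 to 7568486 (mm10, plus strand), had 127, 144 and 78.2 TPM in the cultures labelled knockout, against 98.7, 94.1 and 144 TPM in wild-type cultures. The highest values came from both groups, and the lowest was the library labelled knockout 3. The means were 116 ± 34 TPM labelled knockout, against 112 ± 28 TPM in wild-type cultures (SD, n = 3 each), a log2 difference of 0.03 ± 0.27 (SE, 95% interval -0.60 to 0.67).

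Mmp13, from 7272514 to 7283333 on the same strand, had 5.0, 6.01 and 14.2 TPM in the cultures labelled knockout, against 7.86, 6.12 and 4.35 TPM in wild-type cultures. A single library, labelled knockout 3, stood above the other 5, with 920 reads against 333 to 509. The log2 difference was 0.34 ± 0.42 with all libraries and turned to -0.11 without that library. Mmp13 had the widest range of the 9, with a highest level 3.26 times the lowest, where counting error in the library with fewest reads was 5.48%.

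Mmp9, the gelatinase that cuts denatured collagen and basement membrane collagen, had overlapping groups. On chromosome 2 from 164948219 to 164955849, it had 30.5, 31.2 and 35.1 TPM in the cultures labelled knockout, against 41.7, 28.0 and 38.8 TPM in wild-type cultures. The wild-type values enclosed all those labelled knockout. The log2 difference of -0.15 ± 0.16 had a 95% interval of -0.53 to 0.24, and with single libraries left out it ran from -0.32 (without wild type 2) to -0.03 (without wild type 1).

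Mmp12, the macrophage elastase, lies on chromosome 9 from 7347374 to 7360461 and had 90.7, 84.2 and 151 TPM in the cultures labelled knockout, against 101, 72.2 and 73.8 TPM in wild-type cultures. The library labelled knockout 3 was again the highest, and wild type 1 lay above the remaining libraries labelled knockout. The means were 109 ± 37 TPM labelled knockout, against 82.3 ± 16.2 TPM in wild-type cultures (SD, n = 3 each), a log2 difference of 0.37 ± 0.25 that did not pass. With single libraries left out it ran from 0.10 (without knockout 3) to 0.52 (without knockout 2). In GENCODE M21, 2.17% of its exon bases lie in exons of Mmp1b on the opposite strand, which was not analysed here.

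Mmp14, the membrane-type enzyme, divided the libraries into high and low ones, and that division crossed the genotypes. On chromosome 14 from 54431604 to 54441258, it had 21.4, 18.1 and 7.65 TPM in the cultures labelled knockout, against 7.24, 7.86 and 18.8 TPM in wild-type cultures. The libraries labelled knockout 1, knockout 2 and wild type 3 lay at 18.1 to 21.4 TPM, and the other 3 at 7.24 to 7.86 TPM, with nothing between. Reads numbered 1646, 1292 and 482 labelled knockout, against 398, 635 and 1400 in wild-type cultures, where the lowest number carries a counting error of 5.01%. The log2 difference between genotypes was 0.49 ± 0.50, with a 95% interval of -0.71 to 1.68. It was 0.94 without knockout 3 and 0.92 without wild type 3, but 0.20 without knockout 1, 0.32 without knockout 2, 0.24 without wild type 1 and 0.30 without wild type 2.

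Mmp19, a widely expressed member of the family, had 38.2, 40.8 and 32.5 TPM in the cultures labelled knockout, against 31.6, 30.8 and 42.6 TPM in wild-type cultures. It lies on chromosome 10 from 128790910 to 128800824. The same 3 libraries as for Mmp14 were the highest, but the highest level was only 1.39 times the lowest. The log2 difference was 0.10 ± 0.16 (95% interval -0.28 to 0.47), and with single libraries left out it ran from 0.01 (without wild type 2) to 0.25 (without wild type 3). In GENCODE M21, 22.3% of its exon bases lie in exons of Tmem198b on the opposite strand, which had 12.97 to 17.8 TPM in the cultures labelled knockout, against 13.5 to 16.6 TPM in wild-type cultures. The kit keeps strand, but whether the counting used it is not given in the sources used here.

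Among the inhibitors, Timp2, on chromosome 11 from 118301061 to 118355411 (minus strand), had 162, 157 and 102 TPM in the cultures labelled knockout, against 133, 106 and 172 TPM in wild-type cultures. It was highest in the libraries labelled knockout 1, knockout 2 and wild type 3. The log2 difference was 0.03 ± 0.24 (95% interval -0.54 to 0.60).

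Timp3, the matrix-bound inhibitor that also blocks the sheddase ADAM17, came nearest to a difference by genotype. On chromosome 10 from 86300412 to 86349505, it had 7.29, 5.84 and 5.61 TPM in the cultures labelled knockout, against 7.96, 7.12 and 9.47 TPM in wild-type cultures. The groups overlapped by a single pair, since knockout 1 lay above wild type 2. The means were 6.25 ± 0.91 TPM labelled knockout, against 8.18 ± 1.19 TPM in wild-type cultures (SD, n = 3 each), a log2 difference of -0.38 ± 0.16 with an adjusted p of 1.0 in limma. In the authors' deposited table its log2 fold change was -0.39, with an adjusted p of 1.0. It stayed negative with each library left out in turn, from -0.50 to -0.27. Markers of stroma, osteoblasts and endothelium, cells that can also express Timp3, summed to 5.58 to 5.96 TPM in the cultures labelled knockout, against 6.67 to 7.70 TPM in wild-type cultures. Most of this sum was Pecam1, which leukocytes also express, at 3.89 to 4.45 TPM labelled knockout, against 4.21 to 5.08 TPM in wild-type cultures. The collagen gene Col1a1, named after its values were seen, was rare and overlapped, at 0.144 to 0.237 TPM labelled knockout, against 0.181 to 0.290 TPM in wild-type cultures. Of the 13 markers 7 were tested and 0 passed; all 7 differences were negative, with a median of -0.19, and 1 of the 7, Col1a2, had groups apart, against 5.12% of all genes. The part of these cells in the Timp3 values was not tested. Exons of Syn3 on the opposite strand cover 21.3% of the exon bases of Timp3, and Syn3 stood at 0.00348 to 0.00924 TPM labelled knockout, against 0.00295 to 0.0120 TPM in wild-type cultures.

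Timp1, the inducible inhibitor, was rare, with 30, 22 and 36 reads in the cultures labelled knockout, against 26, 45 and 25 reads in wild-type cultures. That is 1.14, 0.902 and 1.67 TPM labelled knockout, against 1.38, 1.63 and 0.981 TPM in wild-type cultures, a log2 difference of -0.11 ± 0.28. The lowest number, 22, has an exact 95% Poisson interval of 13.8 to 33.3 reads and the highest, 45, one of 32.8 to 60.2. The intervals of these read numbers overlapped. They cover counting error only, are not scaled for library depth and are no test of a difference. Timp1, on chromosome X from 20870166 to 20874737, lies inside Syn1 on the opposite strand, with 0 exon bases shared. Syn1 had 4.14, 4.10 and 8.30 TPM labelled knockout, against 6.72, 5.12 and 3.74 TPM in wild-type cultures, and like Timp1 it was highest in the library labelled knockout 3 and lower in knockout 1, knockout 2 and wild type 3 than in the other libraries.

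Levels of 6 of the 9 genes divided the libraries by the sign of their score on the first principal component, a division common among all genes. Mmp8, Mmp14, Mmp19 and Timp2 were highest in the libraries labelled knockout 1, knockout 2 and wild type 3, which scored below 0 on it, and Mmp13 and Timp1 were lowest in them. These are 6 of the 9 genes, and the same separation held for 47.3% of all genes tested. Mmp9, Mmp12 and Timp3 did not divide in this way. The component was read from the same libraries, so this is a description and no test.

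**Figure D2:**
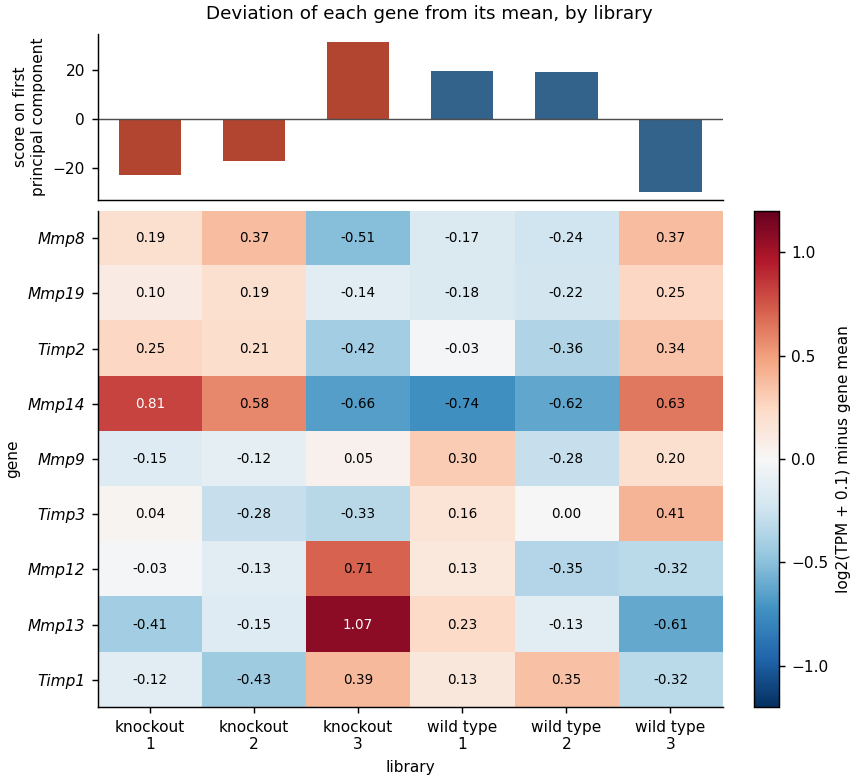
Bars: score of each library on the first principal component over 13713 other genes (no unit). Colours and numbers: log2(TPM + 0.1) of each gene minus its mean over the 6 libraries, with the libraries labelled knockout on the left and wild type on the right. Mmp14 is high (red) in knockout 1, knockout 2 and wild type 3, which have negative scores, and Mmp12 and Mmp13 are highest in knockout 3.

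With a term for the sign of that component in the fit, the differences of several of the 9 genes moved. Mmp13 and Mmp12 then stood higher in the cultures labelled knockout by 0.67 ± 0.19 and 0.53 ± 0.17 on the log2 scale, and Timp3 lower, with a difference of -0.47 ± 0.12. None of them passed over all genes (limma, adjusted p = 0.566, 0.598 and 0.566). At an unadjusted p under 0.05 there were 4 of the 9 genes, these 3 and Mmp8, against 7.59% of all genes. The value for Mmp14, 0.49 ± 0.50 without the term, was 0.04 ± 0.10 with it. Within the libraries with negative scores, Mmp13 differed by 0.33 and Mmp12 by 0.24, and within those with positive scores by 1.02 and 0.82. Each of these rests on 3 libraries. Wild type 3 was the only wild-type library with a negative score, and knockout 3 the only library labelled knockout with a positive score. The larger values therefore rest on knockout 3 alone for their knockout side.

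Leaving out knockout 3 and wild type 3 gave calls for Mmp14, Mmp8 and Mmp19, with log2 differences of 1.37 ± 0.12, 0.49 ± 0.08 and 0.34 ± 0.07 (limma, adjusted p = 0.0159, 0.033 and 0.0473). These are 3 of the 9 genes, against 10.2% of all genes. The remaining libraries labelled knockout both score below 0 on the component and the remaining wild-type libraries both above 0, so genotype and component cannot be told apart there. In the same fit the difference of Mmp13 turned to -0.33 ± 0.17.

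**Figure D3:**
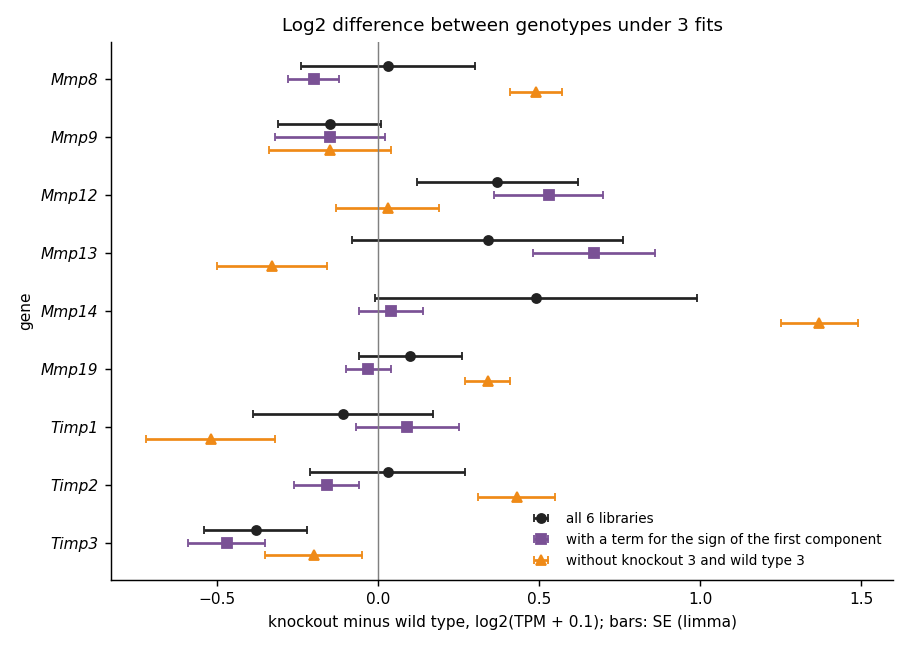
Log2 difference, libraries labelled knockout minus wild type, on log2(TPM + 0.1) (horizontal axis) for each gene, with SE bars from limma, for all 6 libraries (circles), with a term for the sign of the first principal component (squares) and without knockout 3 and wild type 3 (triangles). The Mmp14 value moves from 0.49 to 0.04 and 1.37 across the fits, while Timp3 is negative in all 3.

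Summed over the 6 metalloproteinases, the level was 313, 325 and 318 TPM in the cultures labelled knockout, against 288, 239 and 322 TPM in wild-type cultures. The TIMP sum was 170, 164 and 109 TPM labelled knockout, against 142, 114 and 182 TPM in wild-type cultures. Their ratio was 1.84, 1.98 and 2.92 labelled knockout, against 2.02, 2.09 and 1.77 in wild-type cultures. Mmp27, described below and with a mean of 77.4 TPM, is not in these sums. The library labelled knockout 3 had the highest ratio, with a metalloproteinase sum within the range of the rest. It had the lowest TIMP sum, 109 TPM, close to the 114 TPM of wild type 2. Its makeup also differed, since its Mmp8 level was 0.519 times its Mmp12 level, where the other libraries labelled knockout had ratios of 1.4 and 1.71 and wild type had 0.978, 1.30 and 1.95. Mmp13 exceeded Mmp14 only in the cultures labelled knockout 3 and wild type 1, where the ratios were 1.85 and 1.09.

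Mmp13, Mmp12 and Mmp8 belong to a cluster of metalloproteinase genes on chromosome 9, of which 8 are in the table, spread over 427 kb. Expression along it was uneven. Besides these 3, Mmp27 was abundant, with 94.1, 94.4 and 52.6 TPM in the cultures labelled knockout, against 58.2, 61.9 and 103 TPM in wild-type cultures. Between Mmp12 and Mmp8, Mmp3 had 10 reads and Mmp10 had 45 reads over all 6 libraries, 19 of them in the library labelled knockout 3, and at the far end Mmp20 and Mmp7 had 1 read each.

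Mmp27 begins 2971 bases after the end of Mmp8 on the same strand (from 7571458 to 7581393). Both were highest in the libraries labelled knockout 1, knockout 2 and wild type 3. The highest level was 1.84 times the lowest for Mmp8 and 1.96 times for Mmp27, while the ratio of Mmp8 to Mmp27 within a library moved from 1.35 to 1.53 in the cultures labelled knockout and from 1.4 to 1.70 in wild-type cultures. Whether reads past the end of Mmp8 entered the Mmp27 value was not tested.

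**Figure D4:**
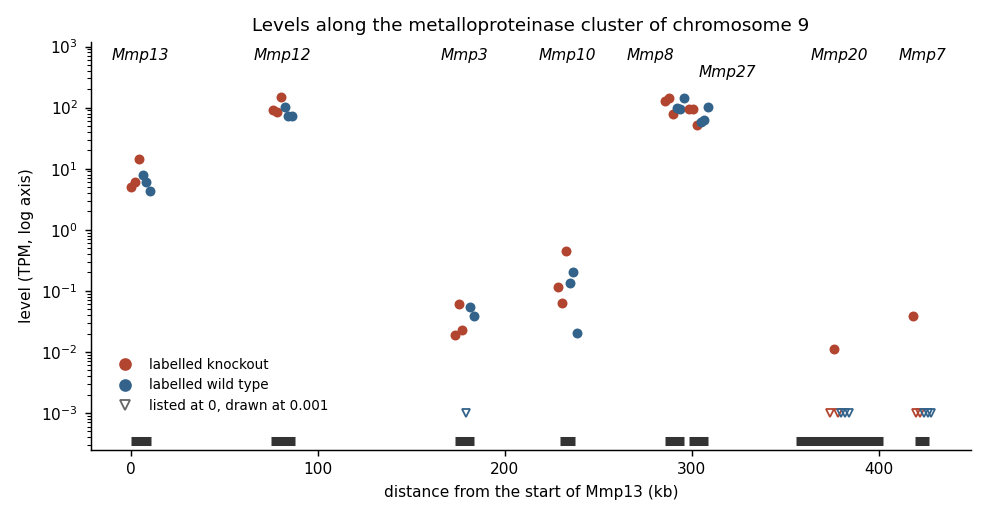
Level in TPM (log axis) of the 8 cluster genes in each library, placed by distance in kb from the start of Mmp13, with gene bodies as black bars; open triangles mark libraries listed at 0, drawn at 0.001. Mmp12, Mmp8 and Mmp27 lie between 52.6 and 151 TPM, while Mmp3, Mmp20 and Mmp7 have means under 0.1 TPM.

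Mmp8 is a neutrophil gene, and the cultures held neutrophil transcripts. The 13 measured neutrophil markers summed to 8413, 8076 and 7321 TPM in the cultures labelled knockout, against 7588, 6056 and 8768 TPM in wild-type cultures, with the calprotectin genes S100a9 and S100a8 as the most abundant. S100a8, S100a9 and Ltf (the last named after its values were seen), and so the sum, were highest in the libraries that were highest for Mmp8, but the other 10 markers did not divide in this way. That is 3 of 13, against 47.3% of all genes. Of the 9 macrophage markers 3, Csf1r, Adgre1 and Mertk, named after their values were seen, had the same 3 highest libraries as Mmp8. Of the 13 neutrophil markers 0 passed by genotype and the median log2 difference was 0.05. The part of either cell type in the Mmp8 values was not tested.

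Osteoclast markers were modest. The 8 measured markers summed to 88.2 to 123 TPM in the cultures labelled knockout, against 98.3 to 129 TPM in wild-type cultures, with the proton pump gene Atp6v0d2 and the collagenolytic protease gene Ctsk highest, and Dcstamp and Ocstamp, needed for cell fusion and named after their values were seen, at means of 0.448 and 0.257 TPM. Of the T and NK cell markers, 6 of 6 had groups that did not overlap, all with the higher values under the knockout label, against 5.12% of all genes in either direction, and 0 passed. They summed to 5.70 to 8.06 TPM labelled knockout, against 2.83 to 4.10 TPM in wild-type cultures, and their part in the metalloproteinase values was not tested.

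Of the other metalloproteinases and inhibitors, 9 of the 15 in the table reached the filter of 0.1 TPM in 3 libraries, and 0 of these 9 passed by genotype. Apart from Mmp27 they were rare, with means of 2.19 TPM for Mmp25, a membrane-anchored enzyme of leukocytes, 0.864 TPM for Reck, a membrane inhibitor, and 0.709 TPM for Mmp11. Mmp2, whose proenzyme MMP14 activates together with TIMP2, is named after its values were seen and averaged 0.152 TPM.

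Genes that activate, dock or clear these enzymes gave 0 of 14 calls, with 3 positive and 11 negative differences and a median of -0.12. The most abundant were the cathepsin genes Ctss and Ctsl, the urokinase gene Plau and the endocytic receptor gene Lrp1. Plau, whose product starts the plasmin cascade that can activate metalloproteinases, had 235, 228 and 1000 TPM in the cultures labelled knockout, against 607, 653 and 159 TPM in wild-type cultures, and was lowest in the 3 libraries where Mmp14 was highest. Furin, which processes the MMP14 proenzyme, is named after its values were seen. It had 74.8, 63.4 and 50.9 TPM labelled knockout, against 55.7, 49.2 and 73.2 TPM in wild-type cultures, and was highest in the same 3 libraries as Mmp14. In either direction, 7 of the 14 genes set those 3 libraries apart from the rest, against 47.3% of all genes.

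Of the ADAM sheddases and the ADAMTS genes listed with them, 0 of 8 passed. Adam8, a myeloid sheddase and the most abundant, had 539, 552 and 1120.0 TPM in the cultures labelled knockout, against 1005, 1071 and 481 TPM in wild-type cultures. It was also lowest in the 3 libraries where Mmp14 was highest. In either direction, 6 of the 8 genes set these libraries apart, against 47.3% of all genes. Adam17, the target of TIMP3, had 228, 230 and 192 TPM labelled knockout, against 190, 191 and 229 TPM in wild-type cultures, a log2 difference of 0.09 ± 0.11.

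Of 10 tested matrix genes 0 passed, with 3 positive and 7 negative log2 differences and a median of -0.50. Groups were apart for 3 of these 10 genes, against 5.12% of all genes. These were Fn1, Sparc and Col1a2, named after their values were seen and all lower under the knockout label. Spp1, the osteopontin gene, had 2112, 1953 and 5056 TPM in the cultures labelled knockout, against 3096, 2379 and 1786 TPM in wild-type cultures, and like Mmp12 and Mmp13 it was highest in knockout 3. Fibronectin, encoded by Fn1 and named after its values were seen, had 2.04, 1.84 and 2.07 TPM labelled knockout, against 2.40, 3.80 and 2.63 TPM in wild-type cultures, a log2 difference of -0.52 ± 0.20 that did not pass.

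Transcription factors known to act on metalloproteinase genes gave 0 of 19 calls, 9 positive and 10 negative, with a median of -0.01. Fos had 244, 126 and 124 TPM in the cultures labelled knockout, against 215, 148 and 155 TPM in wild-type cultures, and Jun 120, 63.6 and 106 TPM labelled knockout, against 86.3, 76.6 and 72.8 TPM in wild-type cultures. Neither followed the order of Mmp12 or Mmp13. Fosl1, an AP-1 subunit named after its values were seen, had 0.396, 0.214 and 1.93 TPM labelled knockout, against 1.63, 1.04 and 0.164 TPM in wild-type cultures. It was rare, with 8 to 80 reads per library, and like Mmp13 it was highest in knockout 3 and lowest in wild type 3. The other AP-1 genes listed, Fos, Fosb, Fosl2, Jun, Junb and Jund, did not have both of these ends. Ets2, which is not an AP-1 gene and is also named after its values were seen, had both, at 127 and 32.9 TPM. Among the genes above, so did Plau, Adam8 and Spp1. The share of all genes with both ends was not counted. In either direction, 7 of the 19 genes set knockout 1, knockout 2 and wild type 3 apart from the rest. Over all genes the share was 47.3%. The part of Fosl1 in the Mmp13 values was not tested.

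Among 8681 genes with a mean of at least 10 TPM, those most like Mmp13 over the 6 libraries were Pgm2, Fcgr1, Cd180 and Inpp5b, with Pearson r of 0.998 to 0.997. Fcgr1, a receptor for IgG, had 141, 150 and 197 TPM in the cultures labelled knockout, against 163, 149 and 138 TPM in wild-type cultures. For Mmp14, added after its values were seen, the nearest were Mkrn1, Phkb, Pfkm and Nr1d2, with r of 0.999 to 0.997. Nr1d2, a nuclear receptor of the clock, had 48.5, 44.8 and 26.8 TPM labelled knockout, against 26.8, 29.1 and 45.8 TPM in wild-type cultures. With 6 libraries, 110 genes exceeded an r of 0.95 for Mmp13 and 516 for Mmp14, and all of these values come from the same libraries.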

How the data were processed

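The authors deposited 1 table with a TPM value per gene and library; the unit was read from the values, which sum to 1000000 in each library. Per the file headers other columns give the authors' p-value (raw and adjusted), a likelihood ratio score, the mean log2 CPM and the log2 fold change. The deposited log2 fold change is positive where the knockout columns are higher. The submitters' processing notes name mm10, TopHat2 2.0.12, featureCounts, edgeR, Subread, Picard 1.127 and FastQC 0.11.2; what each did, the annotation and the strand option of the counting are not given in the sources. Whole reads were recovered from ratios of TPM values between libraries, with 100% of 94034 values above 0 within 0.01 of a whole read; 271 genes needed the deposited mean log2 CPM to fix their scale. The recovered totals were 73.5, 67.9 and 60.6 for the libraries labelled knockout and 52.4, 77.3 and 70.4 for wild type, in units of 1000000 reads.

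Genotype was tested with limma 3.58.1 (R 4.3.3) on log2(TPM + 0.1), with a mean-variance trend, two-sided, for 13722 genes that reached 0.1 TPM in 3 or more libraries; all 9 genes passed this filter. A fold change on this scale understates the change of low genes. With 3 against 3 libraries the smallest exact permutation p is 0.1, and no permutation test was run. Alternatives were other pseudocounts (0.01, 0.5 and 1), no filter or a filter of 1 TPM, no trend, upper-quartile scaling, limma-voom on recovered reads, the replicate number as a block, a term for the sign of the first principal component, and libraries left out. The genes and lists were chosen with earlier results of these data known. The rule for named genes was all 9 genes, Cd274 and Lyz2, up to 4 of the most abundant of each pathway list, up to 2 of each marker list, and the 4 genes most like the gene with the widest log2 range; others are marked in the text. Gene starts are printed counting from 1. No mouse protein sequences were used here.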

Additional observations from a re-analysis of the deposited data

How the results depend on the processing

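The count of 0 calls among the 9 genes and among all genes held in limma under every alternative run except 1. Without both knockout 3 and wild type 3 there were 1400 calls over all genes and 3 among the 9, and the log2 difference of Mmp13 turned to -0.333; genotype and the first component coincide in that fit. With the term for the sign of the first component, signs turned for Mmp8 (-0.196), Mmp19 (-0.026), Timp1 (0.094) and Timp2 (-0.165). With single libraries left out, log2 differences ran from -0.145 to 0.295 for Mmp8, -0.113 to 0.63 for Mmp13, -0.333 to 0.076 for Timp1 and -0.14 to 0.248 for Timp2, and those of the other 5 genes kept their sign. The cause was not tested. Pseudocounts, filters, trend, scaling and limma-voom changed no sign. With the replicate number as a block there were also 0 calls over all genes and 0 among the 9. Libraries with the same number did not deviate together (r of -0.24, -0.15 and -0.53). Those with unlike numbers ran from -0.3 (knockout 1 with wild type 2) to 0.43 (knockout 1 with wild type 3). Deviations over all genes also carry the first component, so whether the numbers pair the samples cannot be told from these values. Depth limits Timp1, with 22 to 45 reads per library.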
